A study of Homo sapiens with 6 samples.

Results

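The genes described here encode the SKP2 ubiquitin ligase and the cell-cycle proteins around it: SKP2, SKP1, CUL1, RBX1, CKS1B, CDKN1B, CCNE1, CCNE2, FBXW7 and BTRC. They were taken by gene symbol from a table of 26699 genes; all 10 were found, and all 10 were abundant enough to be tested. They were selected on the same si against sinc contrast that is described here, with the fold change of SKP2 already known. Their differences are therefore given as a description with an error and without a p-value. Calls on these genes, also under other settings, come from the same libraries as their selection and are no independent support.

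An SCF ligase is built on the scaffold CUL1, which holds the RING protein RBX1 at one end and the adaptor SKP1 at the other. SKP1 carries an F-box protein that selects the substrate: SKP2 selects the CDK inhibitor p27, the product of CDKN1B, with the cofactor CKS1B. FBXW7 selects cyclin E, and BTRC selects phosphorylated proteins such as beta-catenin and the IκB proteins. Cyclin E, the product of CCNE1 and CCNE2, activates CDK2 at the G1 to S transition, p27 inhibits that complex, and SKP2 is known for its high abundance in many carcinomas. Much of this control acts on protein turnover, which RNA counts do not measure.

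RNA was sequenced from OVCA433, an established human ovarian carcinoma cell line, in 3 libraries labelled SOGA1 sinc and 3 labelled SOGA1 si. The labels spell out neither name and give no time point, and the series title speaks of SOGA1 deficiency in ovarian cancer cells. Every group is the same cell line, and no other allele or agent is named. Whether the libraries of a group are separate cultures is not stated, and a p-value here reflects only how far these samples spread.

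SOGA1, the gene named in the labels, stood at 64.4, 59.7 and 63.9 CPM in sinc libraries 1, 2 and 3 and at 25.3, 27.2 and 20.2 CPM in si libraries 1, 2 and 3. CPM is the count scaled to the TMM-adjusted library size. The si mean was 38.7% of the sinc mean (log2 fold change -1.37, SE 0.11, adjusted p = 0.000963 by edgeR). Total counts ran from 33778707 to 44130601 per library. Keratin genes KRT7, KRT8 and KRT18 and the ovarian lineage factor PAX8 had group means between 602 and 2481 CPM, whereas the means of the immune markers CD3E and CD14 did not exceed 0.0924 CPM. EPCAM was low, at 1.22 and 1.93 CPM in sinc and si, and KRT19 stood at 37.6 and 44.0 CPM. The endothelial marker CDH5 stood at 11.3 and 8.11 CPM, above EPCAM, whereas PECAM1 and VWF did not exceed 0.573 CPM. The stromal marker PDGFRB stood at 1.70 and 2.19 CPM. The listed markers MUC16, CDH1, COL1A2, COL3A1 and PTPRC were not found by symbol. Every one of the 26699 genes in the table had counts in some library, so these markers may have had no reads, which was not tested. The collagen gene COL1A1, listed as a stromal marker, was called higher in si at 131 against 103 CPM, and its part in the results was not tested. The deviations of sinc replicate 1 and si replicate 2 from their group means went together across genes (Pearson r = 0.51, across genes, which are not independent replicates). These libraries were not the farthest from their groups. Replicates 1 and 2 were the closest pair in both groups (chi-square per gene 14 in sinc and 20.2 in si). In bulk RNA a smaller number of cells of one kind and less RNA per cell cannot be told apart.

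Of the 10 genes, 2 were called higher in si, 1 was called lower and 7 were not called at an adjusted p of 0.05. Among the 15562 genes tested, 10.1% were called, 4.14% as higher and 6.00% as lower (645 and 934 genes; 1005 and 890 with upper-quartile scaling). CPM values of the groups did not overlap for 4 of the 10 genes, against 34.9% of all genes tested. The median log2 fold change was -0.029 over the 10 genes and 0.0058 over all genes. Since the genes were selected on this contrast, nothing is read from these shares. Without sinc replicate 1 and si replicate 2, 2 of the 10 genes were called, SKP2 and CKS1B.

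**Figure D1:**
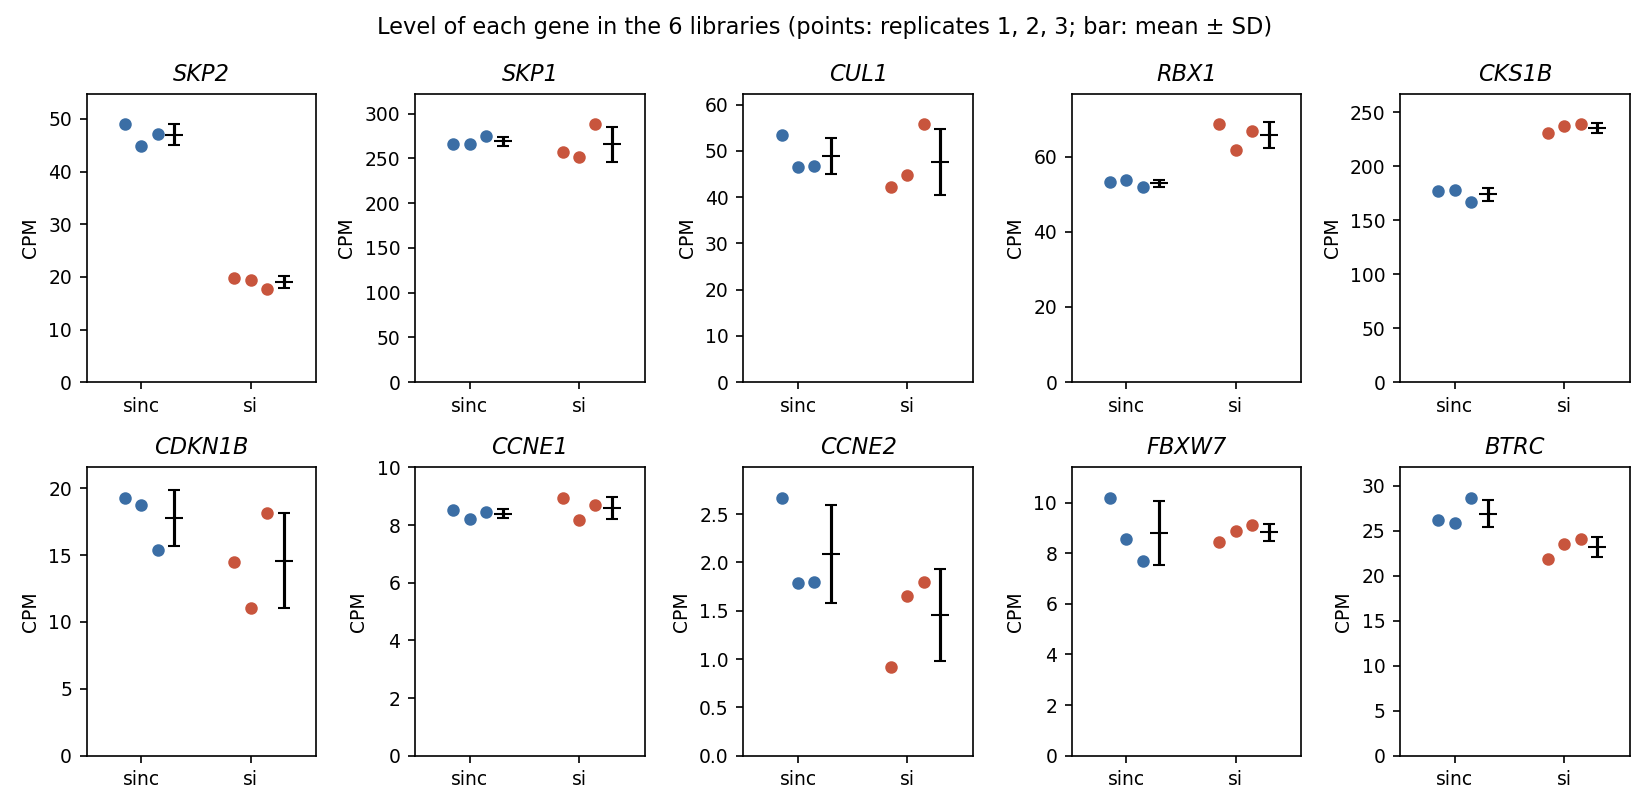
Level of each of the 10 genes in CPM (vertical axes, starting at 0) in the 3 sinc and 3 si libraries; points are replicates 1, 2 and 3 from left to right, and bars are the mean ± SD. SKP2 lies near 47.0 CPM in sinc and near 19.0 CPM in si, RBX1 and CKS1B lie higher in every si library, and CDKN1B, CCNE1, CCNE2, FBXW7, SKP1 and CUL1 overlap.

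The 3 called genes are those on which the description turns, and the bases in front of their RefSeq starts (GRCh38.p14, plus strand) are shown so that a reader can see what their promoters hold. The RefSeq promoter table matched 8 of the 10 genes; CCNE2 and BTRC were not matched. The windows searched were the 250 bases before the start, and each sequence is printed 5′ to 3′ up to at most 20 bases past the GENCODE 29 start of the gene. SKP2 is shown from chr5:36151861-36152008, CKS1B from chr1:154974431-154974672 and RBX1 from chr22:40951128-40951366.
SKP2: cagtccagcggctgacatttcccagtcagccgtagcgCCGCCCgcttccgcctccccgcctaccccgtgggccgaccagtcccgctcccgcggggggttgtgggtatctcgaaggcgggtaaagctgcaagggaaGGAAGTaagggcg
CKS1B: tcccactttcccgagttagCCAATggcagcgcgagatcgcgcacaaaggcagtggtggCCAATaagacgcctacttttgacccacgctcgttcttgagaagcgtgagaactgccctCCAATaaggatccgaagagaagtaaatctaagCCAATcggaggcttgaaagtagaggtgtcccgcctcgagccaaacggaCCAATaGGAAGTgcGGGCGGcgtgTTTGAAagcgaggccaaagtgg
RBX1: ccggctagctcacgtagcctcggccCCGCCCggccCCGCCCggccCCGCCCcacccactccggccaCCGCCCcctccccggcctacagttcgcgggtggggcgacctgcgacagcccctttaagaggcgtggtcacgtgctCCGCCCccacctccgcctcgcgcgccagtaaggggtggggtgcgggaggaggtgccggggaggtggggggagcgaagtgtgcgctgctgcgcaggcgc
Capitals mark matches on either strand to the CCAAT box (CCAAT), the cell cycle homology region (TTTGAA), the GC box (GGGCGG) and the ETS core (GGAAGT). The 8-base E2F sites TTTCCCGC, TTTGGCGC and TTTCGCGC were also searched, and 0 of the 3 windows held one.

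CKS1B, which encodes the small protein that lets SKP2 bind phosphorylated p27, had 5 CCAAT boxes in its window, starting 231, 192, 134, 102 and 54 bases before the RefSeq start. It also had 1 cell cycle homology region at 30 bases, 1 GC box at 40 bases and 1 ETS core at 48 bases. SKP2 had 1 GC box at 213 bases and 1 ETS core at 115 bases and no CCAAT box. RBX1 had 5 GC boxes, at 225, 215, 205, 184 and 109 bases, and no other of the motifs. These windows cover unlike stretches around the GENCODE starts. The SKP2 window ended at 36152110, past the GENCODE start at 36151989, and the ETS core lay past that start too. The CKS1B and RBX1 windows ended at 154974680 and 40951377, closer to their GENCODE starts at 154974653 and 40951347. Fewer bases before the GENCODE start were thus searched for SKP2, and the absence of a CCAAT box holds only for its window. Among the 250-base windows of all 35116 RefSeq promoters, 32.0% held a CCAAT box, 13.3% the cell cycle homology region, 42.6% a GC box, 19.5% the ETS core and 2.3% any of the E2F sites. A match is a description of the letters, not a bound site. The sources used here give no reagent sequence for either group, so no match to SKP2 was looked for.

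SKP2 (ENSG00000145604; chromosome 5, 36151989 to 36184319, plus strand, GENCODE 29 on GRCh38) encodes the substrate receptor for p27. It had 2019, 1982 and 1811 counts in sinc libraries 1, 2 and 3 and 692, 775 and 601 counts in si libraries 1, 2 and 3. As levels these were 49.0, 44.9 and 47.1 CPM in sinc and 19.8, 19.4 and 17.7 CPM in si. Every si library lay below every sinc library, and the lowest sinc value was far above the highest si value. The means were 47.0 ± 2.01 CPM for sinc and 19.0 ± 1.10 CPM for si (SD, n = 3 per group), which is 40.4% of the sinc mean. This is a log2 fold change of -1.31 (SE 0.078, 95% interval -1.49 to -1.13). SKP2 was called in each of 16 alternative settings, with a log2 fold change between -1.38 and -1.27. It was -1.29 without sinc replicate 1 and si replicate 2. Of the 15562 genes tested, 105 had a lower log2 fold change than SKP2. The small RNA gene RNU6-1305P lies within SKP2 on the same strand.

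CKS1B (ENSG00000173207; chromosome 1, 154974653 to 154979249, plus strand), the cofactor of SKP2, lay on the other side. It stood at 177, 178 and 167 CPM in sinc libraries 1, 2 and 3 and at 231, 237 and 239 CPM in si libraries 1, 2 and 3. All 3 si libraries were above all 3 sinc libraries. The means were 174 ± 6.32 CPM for sinc and 236 ± 4.34 CPM for si (SD, n = 3 per group), or 135% of the sinc level. Its log2 fold change was 0.44 (SE 0.055, 95% interval 0.31 to 0.56), and it lay between 0.40 and 0.46 in the 16 settings, called in each of them. Without sinc replicate 1 and si replicate 2 it was 0.44. Near-identical copies of CKS1B were counted beside it, and reads may have been split between them. The copies CKS1BP3 and CKS1BP2 had means of 3.67 and 1.88 CPM in sinc and 5.67 and 2.68 CPM in si, far below CKS1B. How far such a split moves the value of CKS1B was not tested. The copy CKS1BP3 had 155, 160 and 139 counts in sinc and 183, 231 and 203 counts in si, with a log2 fold change of 0.63 (SE 0.15, adjusted p = 0.0367 by edgeR). The copy CKS1BP2 had 68, 98 and 68 counts in sinc and 86, 108 and 97 counts in si (0.51, SE 0.21, adjusted p = 0.149 by edgeR).

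The counts of CKS1B and SKP2 were also set against each other within each library. The 2 genes differed in opposite directions, so their ratio restates those differences. Each SKP2 count was matched by 3.62, 3.96 and 3.54 CKS1B counts in sinc libraries 1, 2 and 3 and by 11.6, 12.2 and 13.5 in si libraries 1, 2 and 3. The mean ratio was 3.71 ± 0.223 in sinc and 12.4 ± 0.935 in si (SD, n = 3 per group). The ratio uses no scaling between libraries, so that the total count and the TMM factor drop out of it. It compares the groups and not the abundance of the genes, since a count also depends on the length of the transcript.

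**Figure D2:**
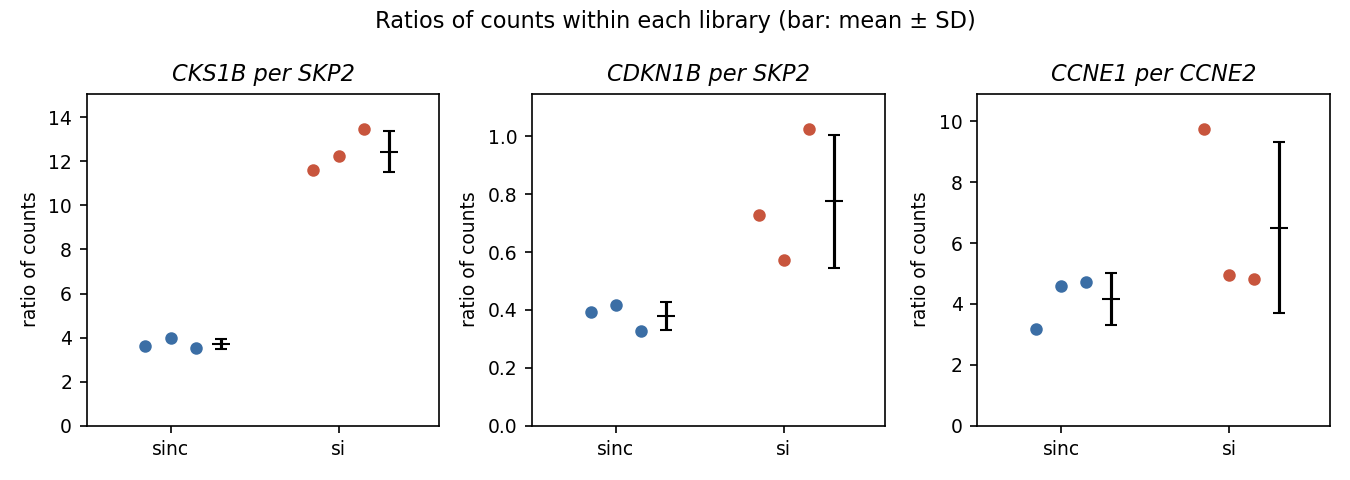
Ratios of counts within each library (vertical axes, starting at 0) for CKS1B per SKP2, CDKN1B per SKP2 and CCNE1 per CCNE2; points are replicates 1, 2 and 3 of each group and bars are the mean ± SD. The first 2 ratios restate the values of their genes, with means of 3.71 in sinc and 12.4 in si for CKS1B per SKP2, and the high mean of CCNE1 per CCNE2 in si comes from replicate 1 at 9.75.

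RBX1 (ENSG00000100387; chromosome 22, 40951347 to 40973309, plus strand) encodes the RING protein that recruits the E2 enzyme. Its level was 53.2, 53.7 and 51.9 CPM in sinc libraries 1, 2 and 3 and 68.6, 61.8 and 66.9 CPM in si libraries 1, 2 and 3. The groups did not overlap, and the si libraries were more spread than the sinc libraries. The means were 52.9 ± 0.912 CPM for sinc and 65.8 ± 3.55 CPM for si (SD, n = 3 per group), with a log2 fold change of 0.31 (SE 0.065, 95% interval 0.16 to 0.46). The call on RBX1 held in 8 of 16 settings. It was lost when any one sinc library was left out (0.30 to 0.32) or si replicate 1 was (0.28), and with both sinc replicate 1 and si replicate 2 left out (0.36). The call was also lost with no filter (0.28), with the replicate number as a block (0.31) and with the length and GC correction (0.24). The direction was higher in all 16.

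The scaffold and the adaptor of the ligase were not called. CUL1 (ENSG00000055130; chromosome 7, 148697914 to 148801036, plus strand) stood at 53.4, 46.4 and 46.8 CPM in sinc libraries 1, 2 and 3 and at 42.2, 44.9 and 55.7 CPM in si libraries 1, 2 and 3. The highest and the lowest of the 6 values were both in si. Its log2 fold change was -0.039 (SE 0.12, 95% interval -0.31 to 0.23). SKP1 (ENSG00000113558; chromosome 5, 134148935 to 134177038, minus strand) stood at 266, 266 and 275 CPM in sinc and at 257, 252 and 288 CPM in si. The si values again lay on both sides of the sinc values. The log2 fold change of SKP1 was -0.019 (SE 0.066, 95% interval -0.17 to 0.13). Both gene bodies overlap others on the opposite strand, SKP1 with TCF7 and CUL1 with AC005229.4. Whether the counting used strand is not given in the sources used here, so reads of these pairs may not have been told apart. AC104109.3, with 3 to 20 counts per library, overlaps SKP1 on the same strand, where counting by strand does not separate reads. SKP1 also has the copy SKP1P1, with 17 to 27 counts per library.

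CDKN1B (ENSG00000111276; chromosome 12, 12715058 to 12722371, plus strand) encodes p27, the substrate of SKP2. Its level was 19.3, 18.7 and 15.4 CPM in sinc libraries 1, 2 and 3 and 14.5, 11.1 and 18.2 CPM in si libraries 1, 2 and 3. The groups overlapped, since si replicate 3 lay above sinc replicate 3. The means were 17.8 ± 2.11 CPM for sinc and 14.6 ± 3.56 CPM for si (SD, n = 3 per group). On the log2 scale its difference of -0.29 (SE 0.19, 95% interval -0.73 to 0.15) was not called and lay between -0.49 and -0.13 with 1 library left out. It was -0.064 without sinc replicate 1 and si replicate 2. Against SKP2 in the same library, CDKN1B had 0.394, 0.417 and 0.326 counts per SKP2 count in sinc and 0.730, 0.572 and 1.02 in si. These ratios follow the lower SKP2 counts in si, and had means of 0.379 ± 0.0470 and 0.775 ± 0.230 (SD, n = 3 per group).

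CCNE1 (ENSG00000105173; chromosome 19, 29811898 to 29824308, plus strand), one of the genes for cyclin E, had nearly the same level in the 6 libraries. It was 8.51, 8.21 and 8.46 CPM in sinc libraries 1, 2 and 3 and 8.94, 8.17 and 8.68 CPM in si libraries 1, 2 and 3. The groups overlapped, and the log2 fold change of 0.035 (SE 0.12, 95% interval -0.25 to 0.32) was not called. CCNE2 (ENSG00000175305; chromosome 8, 94879770 to 94896678, minus strand), the other cyclin E gene, had the fewest counts of the 10 genes, between 32 and 110 per library. It stood at 2.67, 1.79 and 1.80 CPM in sinc and at 0.917, 1.65 and 1.80 CPM in si. Sinc replicate 1 was the highest and si replicate 1 the lowest, and the other libraries lay close together. Its difference of -0.52 on the log2 scale (SE 0.32, 95% interval -1.25 to 0.22) was not called. With 1 library left out it lay between -0.70 and -0.28. INTS8 and NDUFAF6 overlap CCNE2 on the opposite strand and stood at -0.45 and 0.27 on the log2 scale, neither of them called.

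CCNE1 counts per CCNE2 count came to 3.19, 4.58 and 4.71 for sinc libraries 1, 2 and 3 and to 9.75, 4.95 and 4.82 for si libraries 1, 2 and 3. Apart from the first replicate of each group the ratios lay within a narrow range. The means were 4.16 ± 0.843 and 6.51 ± 2.81 (SD, n = 3 per group), so that the difference of the means was smaller than the SD in si.

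The other substrate receptors were not called. FBXW7 (ENSG00000109670; chromosome 4, 152320544 to 152536063, minus strand), the receptor for cyclin E, stood at 10.2, 8.55 and 7.70 CPM in sinc libraries 1, 2 and 3 and at 8.45, 8.89 and 9.12 CPM in si libraries 1, 2 and 3. All 3 si values lay within the range of the sinc values. The log2 fold change was 0.0017 (SE 0.15, 95% interval -0.34 to 0.34). BTRC (ENSG00000166167; chromosome 10, 101354033 to 101557321, plus strand), the receptor for phosphorylated beta-catenin, stood at 26.2, 25.8 and 28.6 CPM in sinc and at 21.9, 23.5 and 24.1 CPM in si. Here all si libraries lay below all sinc libraries, and the means were 26.9 ± 1.51 and 23.2 ± 1.15 CPM (SD, n = 3 per group). The log2 fold change of -0.21 (SE 0.085, 95% interval -0.41 to -0.017) was not called after adjustment over all genes.

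**Figure D3:**
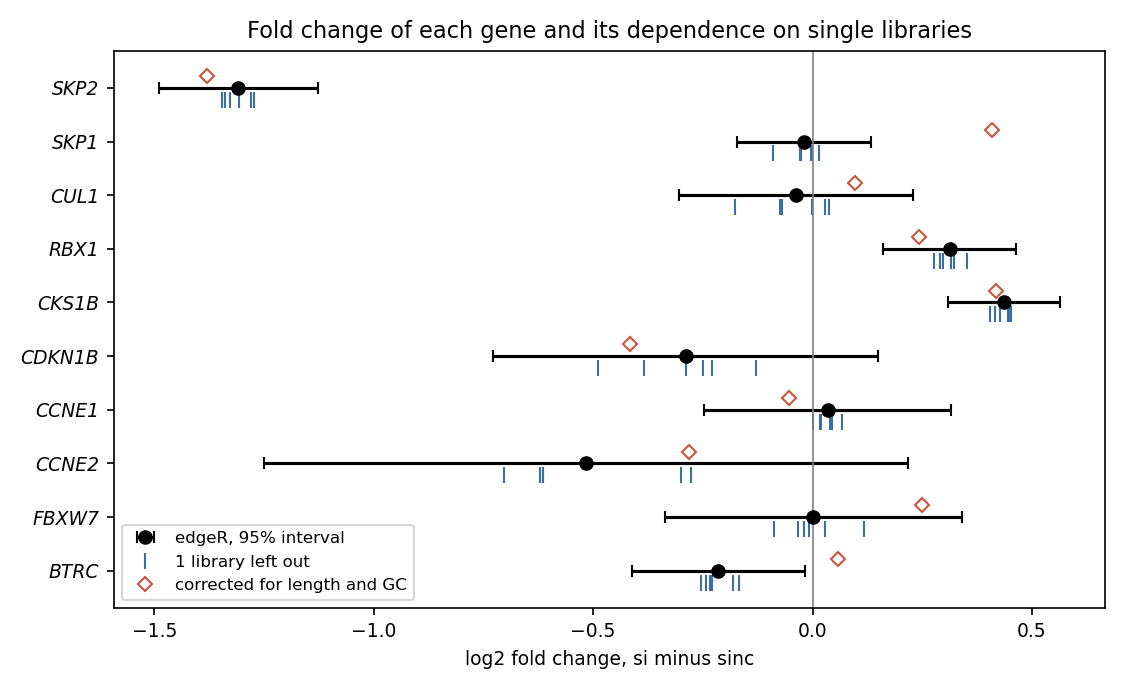
Log2 fold change of si against sinc (horizontal axis) for each of the 10 genes; black points with bars are the edgeR estimate and its 95% interval, blue ticks the estimates with 1 library left out and open diamonds the estimate after correction for transcript length and GC content. SKP2 at -1.31 stays near that value throughout, whereas SKP1 and BTRC move to 0.41 and 0.058 after correction.

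Fold changes in these libraries moved with the length of the transcript. Length was taken from the coding transcript of each gene with the longest coding sequence, which need not be the one expressed in these cells. The length class and the corrected value of a gene depend on that choice. Among genes with a coding transcript in GENCODE 29, the shortest of 4 equal length classes, up to 1960 bases, had a median log2 fold change of 0.15, with 9.97% called higher and 1.78% called lower. The longest class, above 4791 bases, had a median of -0.28, with 0.998% called higher and 14.9% called lower. The size of the trend differed between the libraries of a group. On the log2 scale, the median deviation of the longest minus the shortest class was 0.303, 0.105 and 0.157 in sinc libraries 1, 2 and 3 and -0.267, -0.0639 and -0.252 in si libraries 1, 2 and 3.

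SKP2, CKS1B, RBX1 and CDKN1B belong to the shortest class, with transcripts of 1589, 759, 1188 and 897 bases. SKP2 thus lay below the median of genes of its length, and CKS1B and RBX1 lay above it. BTRC, FBXW7 and SKP1 belong to the longest class, with 6134, 5653 and 9474 bases. BTRC at -0.21 lay close to the median of that class. With each library corrected for transcript length and GC content, a setting chosen after the data were seen, SKP2 stood at -1.38 and CKS1B at 0.42, both still called. RBX1 stood at 0.24 and was no longer called. BTRC and SKP1 stood at 0.058 and 0.41 and CUL1 and FBXW7 at 0.10 and 0.25, none of them called. CDKN1B stood at -0.42, CCNE2 at -0.28 and CCNE1 at -0.054, not called either. The correction thus changed the sign for SKP1, CUL1, BTRC and CCNE1.

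**Figure D4:**
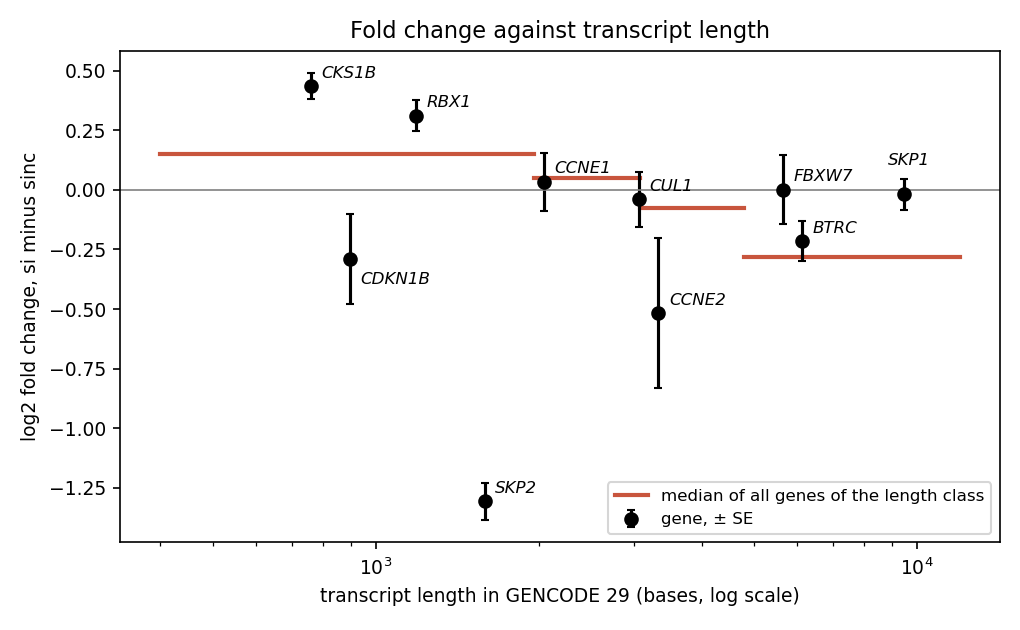
Log2 fold change of each gene (vertical axis, ± SE) against transcript length in GENCODE 29 (horizontal log axis, bases). Length is that of the coding transcript with the longest coding sequence. Red lines are the medians of all genes in each of 4 length classes. The medians run from 0.15 in the shortest class to -0.28 in the longest, and SKP2 at 1589 bases lies far below the line of its class.

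The genes around the ligase were read from 12 further lists by role, in which 186 of 191 listed genes were tested. Of these, 8 were higher, 20 were lower and 158 were not called, or 15.1% called against 10.1% of all genes. The median log2 fold change was -0.062. The lists were chosen by role with earlier results of these data known, so nothing is read from these shares. Without sinc replicate 1 and si replicate 2, 22 were called. Of the genes named from these lists, GLMN, NAE1, MTOR and XPO1 were called in each of the 16 settings, and every other call named below was lost in the fit without sinc replicate 1. The adjusted p-values given for these genes come from edgeR.

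Around the assembly of the ligase, 2 of 23 genes of neddylation, the COP9 signalosome and cullin exchange were lower by edgeR, with a median of -0.016, and 21 were not called. Both lower genes act on the CUL1 and RBX1 module. GLMN encodes glomulin, which binds RBX1 and blocks the access of the E2 enzyme. It stood at 7.13, 5.17 and 5.46 CPM in sinc libraries 1, 2 and 3 and at 1.83, 2.45 and 1.86 CPM in si libraries 1, 2 and 3. All si libraries lay well below all sinc libraries, and the si mean was 34.6% of the sinc mean (log2 fold change -1.53, SE 0.21, adjusted p = 0.00776). NAE1 encodes a subunit of the enzyme that activates NEDD8 for attachment to cullins. It fell from 28.7 ± 2.39 CPM with sinc to 15.4 ± 0.844 CPM with si (SD, n = 3 per group; log2 fold change -0.90, SE 0.10, adjusted p = 0.00369). NEDD8 itself and CAND1, the exchange factor of CUL1, both named after their values were seen, were not called, at 0.40 and -0.46.

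Of 30 other F-box proteins 2 were higher and 3 were lower, with a median of -0.040. FBXO22 and FBXW5 rose by 0.39 and 0.31 (adjusted p = 0.0143 and 0.0263), and FBXO28 and FBXO11, the receptor for the repressor BCL6, fell by 0.49 and 0.67 (adjusted p = 0.0253 and 0.0377). With length and GC content corrected for, these 4 stood at 0.86, 0.15, -0.14 and -0.42, and were not called. Of 10 other cullins and RING partners edgeR called 0, with a median of -0.17; DESeq2 called 2 lower, limma-voom 1 lower, and 1 was higher and 3 lower at an unadjusted p under 0.05. The scaffolds CUL7 and CUL4A, which had the highest CPM among them, stood at 0.15 and -0.16. Of 11 listed enzymes of ubiquitin activation and transfer, not all of them particular to SCF ligases, edgeR, DESeq2 and limma-voom each called 0. At an unadjusted p under 0.05 by edgeR, 2 were higher and 3 lower. UBA1, the ubiquitin-activating enzyme, stood at 609 CPM in both groups, and the E2 enzyme gene UBE2D3 at -0.17. In the anaphase-promoting complex, whose form with FZR1 degrades SKP2, 2 of 16 genes were lower. They were the scaffold gene ANAPC1 at -0.50 and CDC27 at -0.56 (adjusted p = 0.0294 and 0.0327), which stood at -0.17 and -0.35 after the correction and were not called.

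The partners of p27 and cyclin E were mixed in direction. Of 15 cyclin-dependent kinases and other G1/S cyclins 1 was higher and 3 were lower. CDK2, the kinase that cyclin E activates, stood at 151, 160 and 164 CPM in sinc libraries 1, 2 and 3 and at 127, 113 and 129 CPM in si libraries 1, 2 and 3. The groups did not overlap, and CDK2 fell by 0.37 (SE 0.072, adjusted p = 0.0227). The D-type cyclins CCND2 and CCND1 fell by 0.70 and 0.23 (adjusted p = 0.0194 and 0.0419), and their kinase CDK4 rose by 0.22 (adjusted p = 0.0465). Corrected for length and GC content, CCND2 stood at -0.42 and was called, and CCND1 at -0.14 and CDK4 at 0.12 were not. Of 8 other CDK inhibitors and pocket proteins edgeR and limma-voom called 0; DESeq2 called 2 lower, and 2 were lower at an unadjusted p under 0.05 by edgeR. CDKN1A, the gene of the inhibitor p21, stood at -0.14, and RBL2, the gene of p130, at -0.39 (adjusted p = 0.237 and 0.0784; -0.25 and -0.12 after the correction).

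Of 14 E2F and DP factors, which drive G1/S transcription, 2 were higher and 1 was lower, with a median of -0.24. E2F1 rose from 39.6 to 51.2 CPM (log2 fold change 0.37, adjusted p = 0.0267) and its partner TFDP1 rose by 0.26 (adjusted p = 0.0469), whereas E2F3 fell from 17.4 to 10.9 CPM (-0.68, adjusted p = 0.0131). E2F1 stood at 0.24 after the correction and was not called. Of 14 genes of p27 localisation, transcription and turnover 1 was higher and 1 was lower. XPO1, the nuclear export receptor, fell from 93.4 to 49.9 CPM (-0.90, SE 0.13, adjusted p = 0.00815; -0.59 corrected for length and GC content, still called). AKT1, a kinase that phosphorylates p27, rose from 187 to 243 CPM (0.37, SE 0.054, adjusted p = 0.00916).

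Known substrates of the 3 receptors were also read at the RNA level, where degradation of their proteins is not seen. Of 12 other SKP2 substrates 1 was higher and 1 was lower: the elongation kinase gene CDK9 at 0.40 and SMAD4 at -0.38 (adjusted p = 0.0165 and 0.0231), the second of which stood at 0.026 after correction for length and GC content. Of 15 FBXW7 substrates 2 were lower. MTOR, the growth kinase, fell from 129 to 56.3 CPM (-1.20, SE 0.059, adjusted p = 0.000129), and the mitotic kinase AURKA fell from 111 to 76.1 CPM (-0.55, adjusted p = 0.0164). Of 19 BTRC substrates 5 were lower and 1 was higher, with a median of -0.19. CLSPN, a replication checkpoint adaptor, fell by 0.85, RASSF3 by 0.49 and PDCD4, an inhibitor of translation initiation, by 0.49, and the IκB gene NFKBIB rose by 0.47 (adjusted p = 0.0165, 0.0181, 0.0261 and 0.0377). PDCD4 and NFKBIB stood at -0.24 and 0.25 after the correction and were not called. No set test was made on any list.

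**Figure D5:**
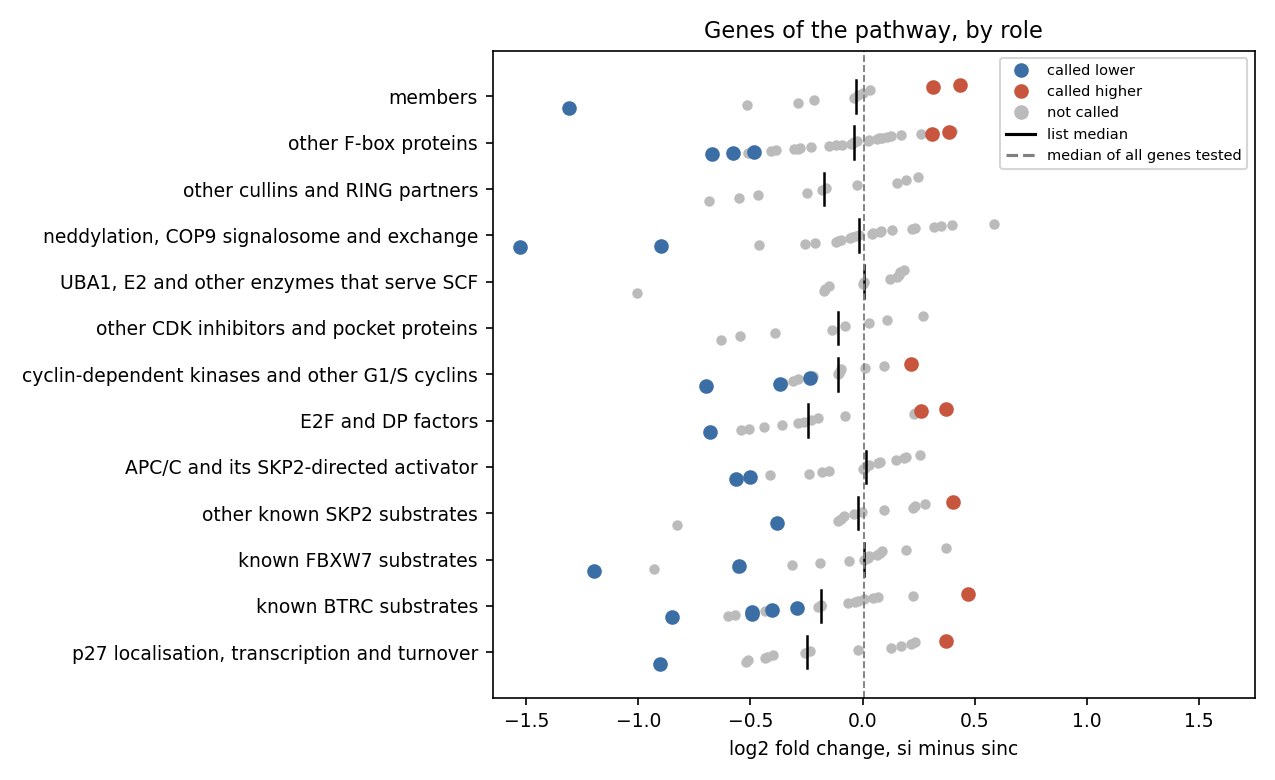
Log2 fold change of si against sinc (horizontal axis) for the 10 genes and the genes of 12 lists by role (rows); blue and red points are genes called lower and higher, grey points those not called, black bars the list medians and the dashed line the median of all genes tested. GLMN at -1.53, SKP2 at -1.31 and MTOR at -1.20 lie farthest to the left, and the list medians lie between -0.25 and 0.015.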

How the data were processed

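Poly(A) RNA was made into strand-specific dUTP libraries with about 15 PCR cycles, per the labels' protocols. Without molecular identifiers, counts may include PCR copies. The SE of a fold change comes from the edgeR fit and includes the spread between the libraries of a group. The authors deposited whole-number counts per gene. CASAVA and StringTie are named in the submitters' processing notes; the sources used here give no version, aligner, genome build or strand setting. Of 26699 gene IDs 26567 matched a reference name table, from which 773 placeholder and 10 date-like symbols were replaced.

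The members and lists were chosen with earlier results of these data known. The test was edgeR 4.0.16 (R 4.3.3; filterByExpr minimum count 10, TMM, glmQLFit and glmQLFTest, group only, two-sided, Benjamini-Hochberg over 15562 genes, threshold 0.05). The SE was taken as the size of the log2 fold change divided by the root of F. The common biological coefficient of variation was 18.8%. Counts of any 2 libraries of a group differed by more than the sampling of reads from 1 library gives (chi-square per gene at least 14). This cannot tell separate cultures from repeated preparations of 1 culture.

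Every member is named, and per list up to 4 called genes with the smallest adjusted p, or, with no call, the 2 highest by CPM. List genes not tested were not analysed here (5 of 191).

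Alternatives were RLE and upper-quartile scaling, DESeq2 1.42.0, limma-voom (limma 3.58.1), a minimum count of 50 or none, each library left out and a block for the replicate number. After the data were seen, leaving out sinc replicate 1 with si replicate 2, and a correction for transcript length and GC content (GENCODE 29, splines with 4 degrees of freedom, 12829 genes) with the same genes uncorrected, were added. Promoters came from RefSeq (GRCh38.p14).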

Additional observations from a re-analysis of the deposited data

How the results depend on the processing

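Of the 10 genes, 2 or 3 were called in every one of the 16 settings, and SKP2 and CKS1B in all of them. Over all genes the count of 1579 was 2926 with DESeq2, 844 with no filter, 203 (without sinc replicate 1) to 2563 (without si replicate 2) with 1 library left out, 1045 without sinc replicate 1 and si replicate 2, and 717 with the length and GC correction, against 1861 on the same genes without it. The 28 calls in the pathway lists became 47, 18, 4 to 47, 22 and 18. With the replicate number as a block the counts were 438 genes, 9 list genes and 2 members. Whether replicate numbers pair the samples is not stated. Deviations of same-numbered libraries correlated at -0.352, -0.0962 and 0.256, and sinc replicate 1 correlated with si replicate 2. With 3 libraries a group these values cannot settle whether the samples are paired. Signs changed only for values near 0 and under the correction. SKP1 was 0.0043 with upper-quartile scaling, 0.0092 without sinc replicate 1 and si replicate 2, 0.41 corrected and -0.090 to 0.014 with 1 library left out. CUL1 was 0.070, 0.10 and -0.18 to 0.037 in the last 3 of these. CCNE1 was -0.054, BTRC 0.058 and SMAD4 0.026 corrected, and FBXW7 was -0.029 with no filter and -0.087 to 0.12 with 1 library left out. UBA1 was -0.00047 with RLE, -0.00050 with DESeq2, -0.00066 with limma-voom, -0.00069 at a minimum count of 50, -5.3e-07 with the block, -0.033 with no filter, -0.027 corrected, and -0.039 to 0.029 with 1 library left out. Of 512 values of the other named genes under these settings 501 kept their direction; the called genes among them were not called in 136 of 416 values. The cause of these changes was not tested. With 3 libraries a group, the intervals of the 10 genes were widest for CCNE2 (-1.25 to 0.22) and narrowest for CKS1B (0.31 to 0.56).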

Other observations

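Genes lying near SKP2 and CKS1B were read after the data were seen, within 500000 bases of each gene body in GENCODE 29. Around SKP2, 6 genes were tested, with adjusted p of 0.119 or more by edgeR and a median log2 fold change of -0.25. LMBRD2, whose gene body lies 28 bases from that of SKP2, stood at -0.40 (SE 0.37, adjusted p = 0.526 by edgeR), and NADK2 at -0.33 (SE 0.12, adjusted p = 0.119 by edgeR). Around CKS1B, 33 genes were tested, of which 3 were higher (FLAD1 at 0.29, ZBTB7B at 0.33 and ADAM15 at 0.53) and the others were not called, with a median of 0.23, against 4.14% higher and a median of 0.0058 over all genes tested.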
